A study of Mus musculus with 11 samples.

Results

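Meis1, Hoxa9, Tal1, Lmo2, Gata2, Erg, Mef2c, Sox4, Hlf and Cd34, 10 regulators and markers of haematopoietic stem cells and early progenitors, were followed in every library by gene symbol, and all 10 of 10 were found among the 24319 symbols of the tables. They were picked by name for known roles in stem cells and leukemia, with earlier results of these data known. Of these, 9 act in the nucleus on transcription, whereas Cd34 encodes a cell surface sialomucin and was kept as a marker of the progenitor state. RNA was sequenced from mice of the C57BL/6J strain in 3 groups. B-ALL cells, that is B cell acute lymphoblastic leukemia, were lymph node cells of 3 leukemic mice, 686, 713 and 760, heterozygous for both Ebf1 and Pax5 (Ebf1+/- Pax5+/-), with 2 libraries per mouse. The dHet proB cells (3 libraries) were Ebf1+/- Pax5+/- Rag2-/- and came from a short culture of c-Kit+ fetal liver cells on the OP9 stromal line, given IL-7, stem cell factor and Flt3 ligand. The wt proB cells (2 libraries) were the sorted FrBC fraction of bone marrow from Ebf1+/+ Pax5+/+ Rag2+/+ animals. EBF1 and PAX5 are the transcription factors that commit lymphoid progenitors to the B cell fate, and every leukemic and dHet proB sample lacks 1 allele of each. Leukemia, tissue, culture and the Ebf1, Pax5 and Rag2 genotypes change together between the groups. Their parts in any difference therefore cannot be told apart. The Ebf1 and Pax5 genotypes differ in both comparisons with wt proB and not between B-ALL and dHet proB. Only dHet proB came from fetal liver. The sources used here do not state ages or whether leukemic cells were purified from the node.

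The genes work in a few linked circuits. MEIS1 and HOXA9 bind DNA together with PBX proteins and keep stem cells and myeloid leukemia cells self-renewing. TAL1, LMO2 and GATA2 sit in 1 complex with LYL1, LDB1 and E proteins, ERG joins them at shared stem cell enhancers, and SOX4, MEF2C and HLF act in lymphoid progenitors or stem cells. As B cells commit, much of this program is normally turned down, while LMO2, ERG, SOX4 and MEF2C stay on in early B cells, where SOX4 is needed for survival at the proB stage and MEF2C helps choose the lymphoid over the myeloid fate.

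Levels are FPKM, fragment numbers relative to transcript length and library total, which allow levels of different genes to be set side by side. B-ALL cells are summarized over n = 3 mice, after averaging the libraries of a mouse. Changes are log2 fold changes of FPKM + 1, a scale that shrinks the change of genes below a few FPKM, with adjusted p-values from limma over 11110 genes tested. No read counts are given. Some low values fell on common steps, so that the worth of 1 fragment could be compared between libraries. Relative to library 1 of mouse 686, the deepest, the other B-ALL libraries had a depth of 0.676 to 0.818, dHet proB libraries 0.64 to 0.658 and wt proB libraries 0.889 and 0.779. The 7 B lineage markers used, among them Cd79a and Vpreb1, summed to 5818 to 8202 FPKM in B-ALL, 7932 to 10420 in dHet proB and 6585 to 6974 in wt proB, and none was below 1 FPKM in all libraries of a group. Transcripts of other cells were found in B-ALL and wt proB libraries. The 9 T cell markers found summed to 40.5 to 215 FPKM in B-ALL. The sums were 12.9 to 25.9 in dHet proB and 50.2 to 60.5 in wt proB. Lat was the highest of these markers in every library. Mouse 760 had Lat at 200 and 185 FPKM but Cd3e at 1.18 and 1.46. Cd3e was at 1.18 to 5.41 FPKM in B-ALL, 0 in all dHet proB libraries and 0.671 and 0.273 in those of wt proB. Cd3d and Cd3g also had every B-ALL value above both wt proB values. Cd4, Cd8a and Zap70 ran the opposite way, with Cd4 at 0.421 to 1.31 FPKM in B-ALL and 6.38 and 3.9 in wt proB. In B-ALL, dHet proB and wt proB, the 7 NK cell markers summed to 5.59 to 36.6, 5.31 to 27.4 and 16.9 to 23.6 FPKM. Klrd1 was most of the dHet proB sums, at 25.3, 5.12 and 21.4 FPKM, while Ncr1, Gzma, Gzmb and Eomes were at 0 there. Gzma was at 0.453 to 6.56 FPKM in B-ALL and 4.04 and 3.11 in wt proB. The 8 markers of monocytes and macrophages summed to 95.9 to 338 FPKM in B-ALL, 35.2 to 68.4 in dHet proB and 294 to 441 in wt proB. The 8 neutrophil markers found summed to 1.28 to 48.3 FPKM in B-ALL, 0.314 to 3.24 in dHet proB and 393 to 420 in wt proB, and the 8 markers of plasmacytoid dendritic cells to 143 to 441, 207 to 235 and 1142 to 1602 in the same groups. Elane and Mpo, which define granulocyte precursors, were listed at 0 in every dHet proB library and were under 1 FPKM in every B-ALL library. The other neutrophil markers were above 1 FPKM in both libraries of mouse 686. There Ngp was at 16.3 and 18.3 FPKM and S100a8 at 17.2 and 15.4. In mice 713 and 760, Ngp was at 0.171 to 0.555 FPKM and S100a8 at 0 to 1.17. In bulk RNA, fewer cells of a type and less RNA per cell cannot be told apart.

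The 10 genes fell into 3 tiers of level. Erg, Mef2c, Sox4 and Lmo2 were well expressed in every library, between 6.52 and 180 FPKM. Tal1, Meis1 and Hoxa9 were low, with a highest value of 5.92 FPKM, and each reached 1 FPKM in some groups and not in others. Gata2, Hlf and Cd34 had a highest value of 0.376 FPKM and were not tested. Of the 7 genes tested, Tal1 passed the filter of 1 FPKM only through B-ALL and Hoxa9 only through wt proB, while Meis1 reached 1 FPKM in both wt proB libraries and 1 of the dHet proB libraries. Such genes enter the test because they differ, so the number of members called is not read as a finding. Between B-ALL and wt proB, 1 member was higher and 2 lower, against 18.2% of all genes tested that were called. Between B-ALL and dHet proB, 1 was higher and 2 lower (25.5% of all genes called), and between dHet proB and wt proB, 1 was higher and 2 lower (8.68% of all genes called). Libraries of the groups did not overlap in 48.2%, 34.9% and 43.0% of all genes tested in these comparisons, which is the measure for each gene below whose groups lay apart.

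**Figure D1:**
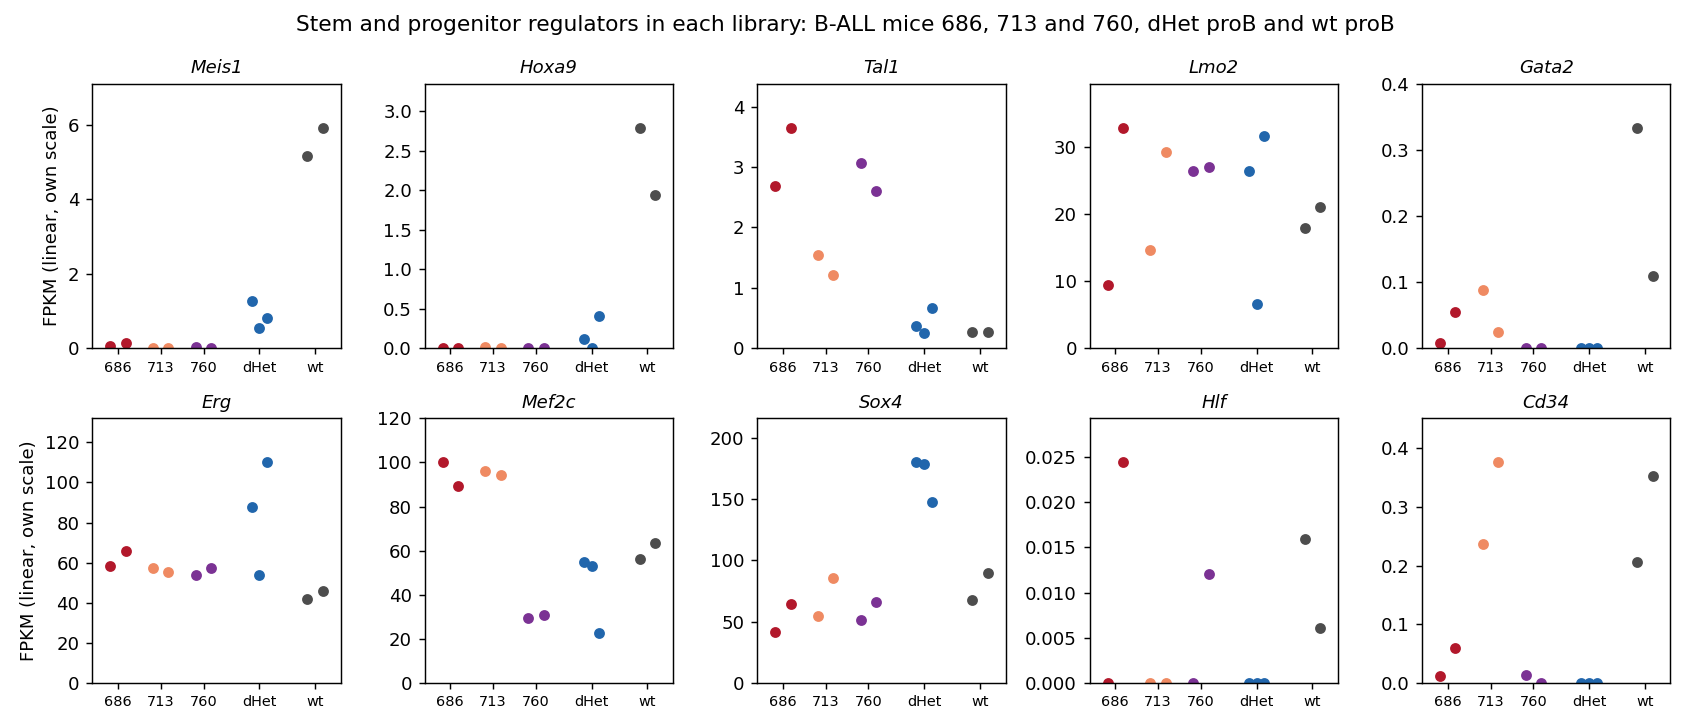
FPKM of each gene in every library (linear axes from 0, each with its own scale), 1 point per library, with the 3 B-ALL mice to the left of dHet proB and wt proB. Meis1 and Hoxa9 are highest in wt proB and near 0 in B-ALL, Tal1 is highest in B-ALL, and Sox4 is highest in dHet proB.

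Meis1 and Hoxa9, the homeodomain pair, were near 0 in leukemic cells, low in dHet proB and highest in wt proB. In mouse 686 Meis1 had 0.0476 and 0.128 FPKM, in mouse 713 it had 0 and 0, and in mouse 760 it had 0.02 and 0. The dHet proB libraries gave 1.26, 0.535 and 0.814 FPKM, and the wt proB libraries 5.17 and 5.92. The 3 groups did not overlap. It averaged 0.0326 ± 0.048 FPKM in B-ALL, 0.869 ± 0.365 in dHet proB (SD, n = 3 each) and 5.54 ± 0.532 in wt proB (n = 2). It fell in B-ALL against wt proB (log2 -2.66 ± 0.21 SE, limma adjusted p = 0.000304), in B-ALL against dHet proB (-0.84 ± 0.19, limma adjusted p = 0.0166) and in dHet proB against wt proB (-1.82 ± 0.21, limma adjusted p = 0.00166). The last of these calls rested on both wt proB libraries, at adjusted p = 0.0657 and 0.0678 when library 1 or 2 was left out, and that against dHet proB was lost without dHet proB library 1 (-0.69, adjusted p = 0.0563).

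Hoxa9 followed the same order at lower levels. Hoxa9 was listed at 0 in 5 of 6 B-ALL libraries and at 0.0126 FPKM in library 1 of mouse 713, had 0.113, 0 and 0.41 FPKM in dHet proB libraries, and 2.79 and 1.94 in wt proB libraries. Both wt proB libraries lay above all others, while B-ALL and dHet proB overlapped. Hoxa9 fell in B-ALL (-1.74 ± 0.21, limma adjusted p = 0.00182) and in dHet proB (-1.52 ± 0.21, limma adjusted p = 0.00383), each against wt proB. Without either wt proB library the gene did not pass the filter, so these calls could not be checked by leaving one out. B-ALL against dHet proB was at -0.21 with a 95% interval of -0.65 to 0.22 and did not pass (limma adjusted p = 0.439). Over the 8 units (3 mice and 5 proB libraries), the log2 levels of Meis1 and Hoxa9 had a Pearson r of 0.94, a description in which the 2 wt proB libraries set most of the range. The wt proB libraries in which both were highest also had the highest sums of the neutrophil and dendritic cell markers given above. The part of these cells in the Meis1 and Hoxa9 levels was not tested.

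The 250 bases before the start sites of these genes are shown because Meis1 and Hoxa9 moved together. They come from RefSeq (build GRCm38.p6, strand -), for Meis1 at chr11:19018970-19019219 and for Hoxa9 at chr6:52227371-52227620, a different build from the mm9 of the expression tables. Capitals mark every match, on either strand, to CANNTG (E-box, bound by TAL1 and E proteins), GATAA (GATA factors) or GGAAG (ETS factors), where overlapping matches run together.
Meis1: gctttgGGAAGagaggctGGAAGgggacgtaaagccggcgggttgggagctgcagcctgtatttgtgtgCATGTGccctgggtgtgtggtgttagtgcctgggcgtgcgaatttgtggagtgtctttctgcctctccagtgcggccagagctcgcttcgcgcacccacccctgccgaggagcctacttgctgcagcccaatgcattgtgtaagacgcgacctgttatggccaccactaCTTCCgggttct
Hoxa9: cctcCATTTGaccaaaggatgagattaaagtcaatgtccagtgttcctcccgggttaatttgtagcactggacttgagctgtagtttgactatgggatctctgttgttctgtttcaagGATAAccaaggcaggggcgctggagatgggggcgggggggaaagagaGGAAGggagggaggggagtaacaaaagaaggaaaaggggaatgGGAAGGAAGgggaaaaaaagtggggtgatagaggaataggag
The Meis1 window held 1 E-box and 3 ETS matches and no GATA match, and the Hoxa9 window 1 E-box, 1 GATA and 3 ETS matches. Of 32851 RefSeq windows of this length, 66.2% held an E-box, 22.6% a GATA and 64.1% an ETS match, so these letters are common. Neither window held the EBF1 palindrome TCCC and GGGA spaced by any 2 bases (0.779% of windows) or TGATTNAT, a HOX-TALE motif (2.82%).

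Partners of this pair were read from a list of 11 genes, of which 5 were tested. None rose and 2 fell in B-ALL against wt proB (median log2 -0.59, against -0.02 over all genes tested), none rose and 2 fell in B-ALL against dHet proB (median -0.51, against 0.04), and none passed between dHet proB and wt proB (median -0.08, against -0.04). Hoxa7, a neighbour of Hoxa9 in the HoxA cluster, was listed at 0 in 5 of 6 B-ALL libraries and had 2.94, 0.0676 and 3.37 FPKM in dHet proB libraries and 9.9 and 9.64 in wt proB libraries (B-ALL against wt proB -3.42 ± 0.54, limma adjusted p = 0.0053). Hoxb4, known for expanding stem cells when forced on, fell in B-ALL against wt proB (0.0365 ± 0.0239 against 2.48 ± 0.471 FPKM, -1.74, limma adjusted p = 0.000763) and against dHet proB (1.32 ± 0.0946 FPKM, -1.16, limma adjusted p = 0.00293). The MEIS relative Pknox1 fell against dHet proB (22.2 ± 2.83 against 31.2 ± 2.77 FPKM, -0.48, limma adjusted p = 0.045).

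Tal1, the basic helix-loop-helix factor that founds blood cell fate, ran the other way and was highest in leukemic cells. It had 2.68 and 3.65 FPKM for mouse 686, 1.54 and 1.21 for 713 and 3.07 and 2.61 for 760, against 0.362, 0.245 and 0.671 in dHet proB libraries and 0.26 and 0.264 in wt proB libraries. Every B-ALL library was above every proB library. The mean of 2.46 ± 0.955 FPKM in B-ALL (SD, n = 3) was 5.77 times that of dHet proB (0.426 ± 0.22) and 9.39 times that of wt proB (0.262 ± 0.00265, n = 2). Tal1 rose against dHet proB (1.24 ± 0.24, limma adjusted p = 0.0108), and at adjusted p = 0.0227 without the filter on low values, which the gene had passed only through B-ALL. It also rose against wt proB (1.41 ± 0.27, limma adjusted p = 0.012), a call lost without wt proB library 1 (adjusted p = 0.11) or 2 (adjusted p = 0.136). The levels of dHet proB and wt proB overlapped (0.17, 95% interval -0.47 to 0.80, limma adjusted p = 0.789).

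TAL1 is also a factor of red cell and megakaryocyte precursors, so their markers were read beside it. The 9 red cell markers summed to 127 to 580 FPKM in B-ALL, 54.1 to 73.8 in dHet proB and 35.9 to 65.5 in wt proB, and most of the proB sums was Tfrc, the transferrin receptor of all dividing cells (52.7 to 72.6 in dHet proB libraries, 34 and 25.3 in those of wt proB), which was at 140 and 117 in mouse 686. The 7 megakaryocyte markers summed to 0.478 to 2.75 FPKM in B-ALL, 0.142 to 0.917 in dHet proB and 2.03 to 2.09 in wt proB. Globin transcripts were highest in mouse 713, with Hba-a1 at 218 and 277 FPKM, and Tal1 was at 1.54 and 1.21 there. In mouse 760, Hba-a1 was at 63.9 and 75.9 FPKM and Tal1 at 3.07 and 2.61. In mouse 686, Hba-a1 was at 4.07 and 5.48 FPKM and Tal1 at 2.68 and 3.65. Gata1, the GATA factor that defines red cell precursors, was under 1 FPKM in all libraries. Alas2, also among the red cell markers, was at 5.51 and 7.57 FPKM in mouse 713, 0.862 and 1.79 in mouse 760 and at most 0.526 elsewhere. Klf1, another of them, was at 0.554 and 0.718 FPKM in mouse 686, 0.728 and 0.254 in 713 and 1.21 and 0.975 in 760. Klf1 was at 0.599 to 0.914 FPKM in dHet proB libraries and 0.886 and 1.49 in those of wt proB. The part of red cell precursors in the Tal1 levels was not tested.

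The window before the first listed start site of Tal1 (chr4:115056176-115056425, strand +, RefSeq, GRCm38.p6) is shown because Tal1 was the member that rose in leukemic cells, with the same marking.
Tal1: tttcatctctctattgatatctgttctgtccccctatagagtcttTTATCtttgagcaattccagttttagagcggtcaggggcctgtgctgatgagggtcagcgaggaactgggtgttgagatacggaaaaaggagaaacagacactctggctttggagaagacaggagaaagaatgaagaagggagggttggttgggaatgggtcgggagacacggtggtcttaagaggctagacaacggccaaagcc
It held 1 GATA match, read on the opposite strand as TTATC, and none of the other motifs searched. The window of the other listed start held 1 ETS match and none of the others.

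Lmo2, which bridges TAL1 to GATA factors, was expressed at like levels in the 3 groups, but its libraries disagreed. It had 9.41 and 32.9 FPKM for mouse 686, 14.6 and 29.3 for 713 and 26.4 and 27 for 760, then 26.5, 6.52 and 31.7 in dHet proB libraries and 17.9 and 21 in wt proB libraries. All groups overlapped. The differences were 0.14 for B-ALL against wt proB (95% interval -1.16 to 1.44, limma adjusted p = 0.88), 0.25 for B-ALL against dHet proB (-0.92 to 1.41, adjusted p = 0.752) and -0.11 for dHet proB against wt proB (-1.41 to 1.19, adjusted p = 0.945). These are the widest intervals of the 7 genes tested.

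Gata2, the GATA factor of stem cells and mast cells, was close to the limit of detection. Its values were whole steps within 0.023 of a step, and with the smallest common step taken as 1 fragment, the B-ALL libraries held 1 and 5 fragments (mouse 686), 7 and 2 (mouse 713) and 0 and 0 (mouse 760). The dHet proB libraries held 0, 0 and 0, and the wt proB libraries 35 and 10. Both wt proB libraries, at 0.334 and 0.109 FPKM, were above all others. In a dHet proB library, 3 fragments would have read 0.0387 to 0.0398 FPKM, which is the limit a count of 0 allows from counting error alone. The 9 mast cell and basophil markers, from cells that use GATA2, were all listed at 0 in dHet proB and summed to 1.12 to 8.28 FPKM in B-ALL and 3.43 to 9.25 in wt proB. Their part in the Gata2 values was not tested.

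Of 12 further genes of this complex, 9 were tested. None rose and 4 fell in B-ALL against wt proB (median -1.0), none rose and 4 fell against dHet proB (median -1.03), and 1 fell in dHet proB against wt proB (median -0.21). Lmo4, an LMO2 relative that also binds LDB1, had 15.9 ± 4.47 FPKM in B-ALL, 32.9 ± 4.77 in dHet proB and 159 ± 1.88 in wt proB, and fell against wt proB in B-ALL (-3.28, limma adjusted p = 0.000245) and in dHet proB (-2.24, limma adjusted p = 0.00121). Tcf12, which encodes the E protein HEB, fell in B-ALL against wt proB (18 ± 4.23 against 50.9 ± 0.501 FPKM, -1.49, limma adjusted p = 0.0259) and against dHet proB (98.6 ± 41.9 FPKM, -2.34, limma adjusted p = 0.00303). Zfpm1, the GATA cofactor FOG1, fell against dHet proB (11.1 ± 0.551 against 26.6 ± 2.66 FPKM, -1.31, limma adjusted p = 0.002). Its libraries disagreed within mouse 686 (4.02 and 17.9 FPKM) and mouse 713 (6.97 and 14.4), which the SD over mouse means does not show.

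Erg, an ETS factor that maintains stem cells and is also active in early B cells, was at 58.1 and 65.9 FPKM for mouse 686, 57.5 and 55.3 for 713, 53.8 and 57.3 for 760, 87.8, 54 and 110 in dHet proB libraries, and 41.9 and 45.7 in wt proB libraries. The leukemias were alike, and by mean the order was dHet proB, B-ALL and wt proB, in which no neighbours passed the test. All B-ALL libraries were above both wt proB libraries (0.39, 95% interval -0.23 to 1.02, limma adjusted p = 0.336) and overlapped dHet proB (-0.47, 95% interval -1.03 to 0.09, limma adjusted p = 0.183). dHet proB against wt proB was at 0.87 (95% interval 0.24 to 1.49, limma adjusted p = 0.0972). None of these passed, but without dHet proB library 2, the lowest of its group, Erg was called lower in B-ALL than in dHet proB (-0.76, adjusted p = 0.0154) and higher in dHet proB than in wt proB (1.15, adjusted p = 0.0088).

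All 11 other ETS and RUNX factors listed were tested. In B-ALL against wt proB none rose and 3 fell (median -0.25), in B-ALL against dHet proB 1 rose and 1 fell (median -0.11), and in dHet proB against wt proB none rose and 2 fell (median 0.05). Ets1, a factor of lymphoid cells, fell in B-ALL against dHet proB (152 ± 50.7 against 452 ± 75.3 FPKM, -1.60, limma adjusted p = 0.0061), whereas Etv6, a repressor needed in adult stem cells, rose (11.5 ± 3.2 against 6.32 ± 0.212 FPKM, 0.73, limma adjusted p = 0.04). Runx2 fell in B-ALL (0.875 ± 0.64 FPKM, -3.44, limma adjusted p = 0.0006) and in dHet proB (0.039 ± 0.0546 FPKM, -4.23, limma adjusted p = 0.000241) against wt proB (18.7 ± 4.24 FPKM). Runx2 is also a factor of plasmacytoid dendritic cells, whose Siglech transcript was at 132 and 77.3 FPKM in wt proB and at 0 in dHet proB, and their part was not tested. Ets2 fell in B-ALL (0.996 ± 0.373 against 11.3 ± 0.411 FPKM, -2.64, limma adjusted p = 0.000556) and in dHet proB (0.682 ± 0.285 FPKM, -2.88, limma adjusted p = 0.000373).

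Sox4, an HMG-box factor that proB cells need for survival, was highest in dHet proB. It had 41.2 and 64.3 FPKM for mouse 686, 54.7 and 85.9 for 713 and 51.1 and 65.8 for 760, then 180, 179 and 148 in dHet proB libraries and 67.9 and 89.6 in wt proB libraries. Every dHet proB library was above every other library, while B-ALL and wt proB overlapped. Sox4 fell in B-ALL against dHet proB (60.5 ± 8.98 against 169 ± 18.2 FPKM, SD, n = 3 each, -1.50 ± 0.17, limma adjusted p = 0.00165), and this call held in all 26 other settings. It rose in dHet proB against wt proB (78.8 ± 15.3 FPKM, n = 2, 1.10 ± 0.19, limma adjusted p = 0.00997), but not without wt proB library 1 (0.90, adjusted p = 0.162) or 2 (1.30, adjusted p = 0.065), nor with the mouse as a random effect (adjusted p = 0.251). B-ALL against wt proB was at -0.40 (95% interval -0.84 to 0.04, limma adjusted p = 0.18).

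The window before the Sox4 start (chr13:28953700-28953949, strand -, RefSeq, GRCm38.p6) is shown with the same marking, because Sox4 was the member highest in dHet proB.
Sox4: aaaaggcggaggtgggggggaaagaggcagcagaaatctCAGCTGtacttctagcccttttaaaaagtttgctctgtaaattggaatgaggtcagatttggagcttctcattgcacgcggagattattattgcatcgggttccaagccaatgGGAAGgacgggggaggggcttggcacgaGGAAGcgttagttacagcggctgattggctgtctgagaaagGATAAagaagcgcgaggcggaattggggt
It held 1 E-box, 1 GATA and 2 ETS matches and neither of the remaining motifs.

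**Figure D2:**
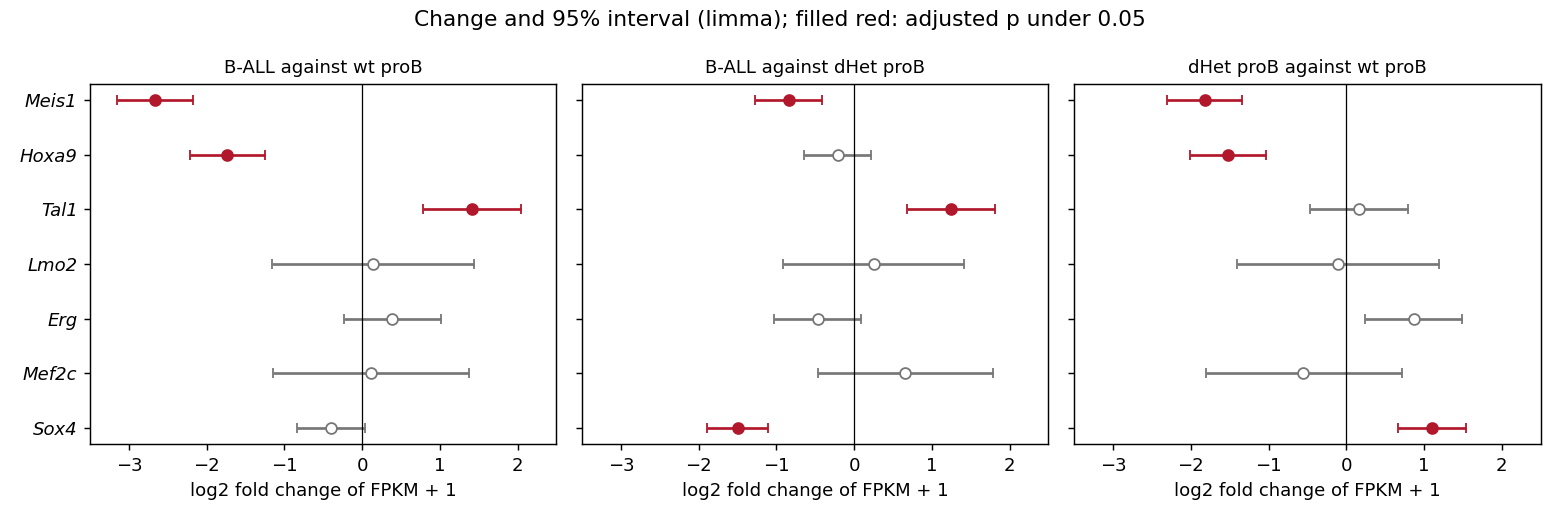
Log2 fold change of FPKM + 1 (horizontal axis) with its 95% interval from limma for the 7 genes tested, in B-ALL against wt proB, B-ALL against dHet proB, and dHet proB against wt proB. Filled red points have an adjusted p under 0.05, and Meis1 is filled and negative in all 3 panels.

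Mef2c, a MADS-box factor of lymphoid progenitors and B cells, divided the leukemias. It had 100 and 89.3 FPKM in mouse 686 and 96.1 and 94.3 in mouse 713 but 29.6 and 30.6 in mouse 760, against 55, 53.1 and 22.8 in dHet proB libraries and 56.4 and 63.6 in wt proB libraries. Mice 686 and 713 were above every proB library, and mouse 760 was below both wt proB libraries and within the range of dHet proB. No comparison of the groups passed: B-ALL against wt proB was at 0.11 (95% interval -1.15 to 1.38, limma adjusted p = 0.9), B-ALL against dHet proB at 0.66 (-0.47 to 1.79, adjusted p = 0.352) and dHet proB against wt proB at -0.55 (-1.81 to 0.72, adjusted p = 0.629).

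Hlf, a PAR-domain bZIP factor of stem cells that is fused to TCF3 in a rare human B-ALL, was barely detected. Its values were whole steps, with 0 and 4 fragments in mouse 686, 0 and 0 in mouse 713, 0 and 2 in mouse 760, 0, 0 and 0 in dHet proB libraries, and 3 and 1 in wt proB libraries. A difference between groups was not detectable at this depth, since 3 fragments would read 0.0141 to 0.0221 FPKM depending on the library.

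Relatives of Mef2c, Sox4 and Hlf and their class IIa histone deacetylase partners made a list of 12, of which 9 were tested. None rose and 2 fell in B-ALL against wt proB (median -0.66), none rose and 2 fell against dHet proB (median -0.22), and 1 fell in dHet proB against wt proB (median -0.21). Hdac5, a repressor that binds MEF2 proteins, fell in B-ALL, at 7.83 ± 0.707 FPKM, against 95.8 ± 31.1 in dHet proB (-3.41, limma adjusted p = 0.000286) and 64.8 ± 5.58 in wt proB (-2.90, limma adjusted p = 0.00052). Mef2d fell against wt proB (10.1 ± 1.81 against 18.1 ± 1.66 FPKM, -0.79, limma adjusted p = 0.0241) and Mef2a against dHet proB (13.8 ± 2.8 against 20.6 ± 1.64 FPKM, -0.57, limma adjusted p = 0.0481). Mef2b fell in dHet proB against wt proB (0.165 ± 0.228 against 1.69 ± 0.322 FPKM, -1.22, limma adjusted p = 0.0231).

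Other stem and progenitor regulators gave 8 tested genes of 12. None rose and 2 fell in B-ALL against wt proB (median -0.15), none rose and 3 fell against dHet proB (median -0.17), and none passed between dHet proB and wt proB (median 0.20). Gfi1b, a repressor of stem cells and red cell precursors, had 0.959 ± 0.828 FPKM in B-ALL, 5.3 ± 1.27 in dHet proB and 10.7 ± 1.32 in wt proB, and fell against wt proB (-2.68, limma adjusted p = 0.00353) and dHet proB (-1.78, limma adjusted p = 0.0101). Gfi1 fell against wt proB (1.7 ± 0.482 against 4.08 ± 0.102 FPKM, -0.98, limma adjusted p = 0.0177), and Myb, a driver of progenitor growth, against dHet proB (96.1 ± 49.6 against 244 ± 47 FPKM, -1.52, limma adjusted p = 0.0188). For both, libraries of a mouse disagreed. Gfi1 was at 0.539 and 1.83 FPKM in mouse 686 and 1.05 and 2.52 in mouse 713, and Myb at 31.6 and 96.2 and at 53.3 and 89. Over all 6 lists, 50 of 71 genes were tested, with 0 higher and 13 lower in B-ALL than in wt proB (8.15% and 10.0% of all genes tested), 2 higher and 13 lower than in dHet proB (14.5% and 11%), and 1 higher and 4 lower in dHet proB than in wt proB (2.18% and 6.50%).

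Cd34, the surface marker by which progenitors are sorted, was traced in single fragments. The B-ALL libraries held 1 and 4 fragments for mouse 686, 14 and 23 for 713 and 1 and 0 for 760, against 0, 0 and 0 in dHet proB libraries and 16 and 24 in wt proB libraries. Mouse 713, at 0.237 and 0.376 FPKM, overlapped wt proB, at 0.206 and 0.353 FPKM, and the other 2 mice lay below both. In a dHet proB library, 3 fragments would have read 0.0522 to 0.0537 FPKM. Cd34 is also made by mast cells and endothelium. The mast cell and basophil markers disagreed. Tpsb2, a mast cell tryptase, was at 4.31 and 3.02 FPKM in mouse 713, at most 0.864 in the other mice and 0 and 0.0384 in wt proB. Cma1 and Cpa3 were also highest in mouse 713. Prss34 went the other way, at 0.116 and 0 FPKM in mouse 713 and 2.44 and 7.48 in wt proB, as did Mcpt8, at 0 and 0 against 0.67 and 1.35. The 8 endothelial markers summed to 22.4 to 49.5 FPKM in B-ALL, 43 to 83.8 in dHet proB and 61.6 to 66.7 in wt proB. Of these, Pecam1, which leukocytes also make, was at 45.5 and 45.5 FPKM in mouse 713 and 20 to 33.8 in the other mice, and Plvap was at 2.26 to 3.81 in B-ALL. Cdh5, Kdr, Tek, Tie1 and Emcn were under 1 FPKM in every B-ALL library. Cdh5 was at 0.181 and 0.291 in mouse 713, at most 0.0332 in the other mice and at 7.99 and 7.74 in wt proB. Sox17 was highest in mouse 760, at 1.11 and 1.45 FPKM, against 0.549 and 0.568 in mouse 713. It was at most 0.0191 in mouse 686 and 0.0107 in wt proB. The part of these cells in the Cd34 values was not tested.

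**Figure D3:**
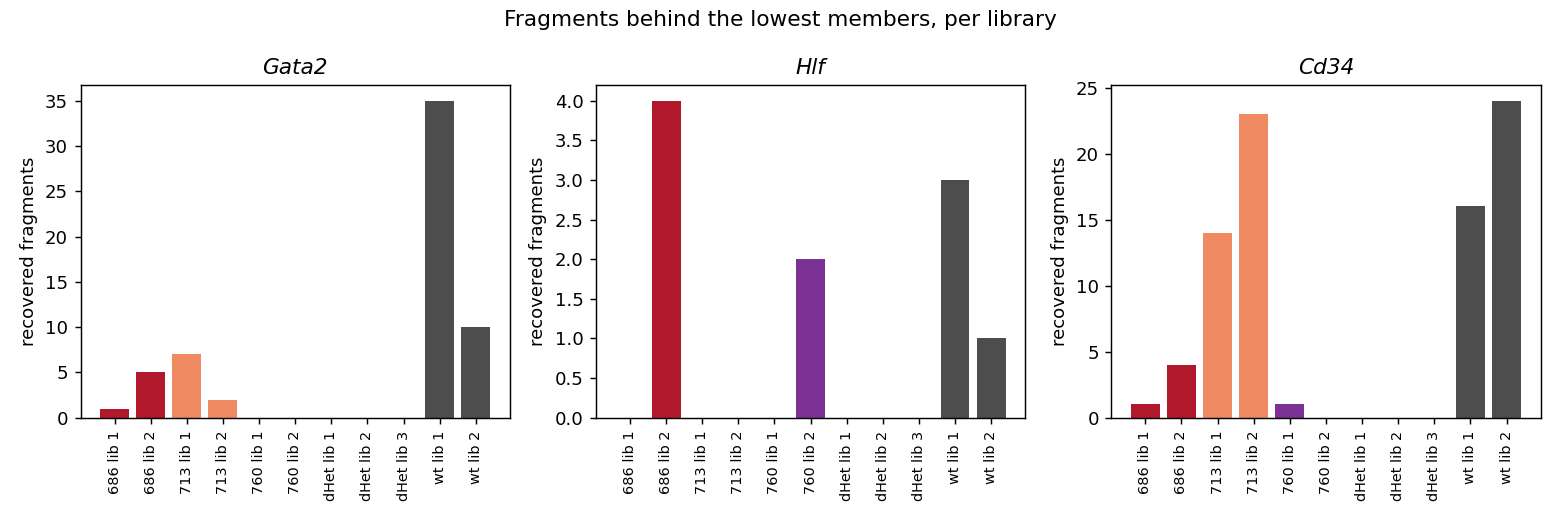
Recovered whole fragments (vertical axis, linear from 0) of Gata2, Hlf and Cd34 in each library, with B-ALL libraries by mouse at the left, then dHet proB and wt proB. The dHet proB libraries are at 0 for all 3 genes, and the Cd34 bars of mouse 713, at 14 and 23, are close to those of wt proB, at 16 and 24.

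Of 13 other stem and progenitor surface genes, 8 were tested. None passed in B-ALL against wt proB (median 0.33), 1 rose and 1 fell in B-ALL against dHet proB (median 0.21), and 1 rose in dHet proB against wt proB (median -0.18). Kit, the receptor of stem cell factor by which the dHet proB cultures were started, had 16.9 ± 9.45 FPKM in B-ALL, 81.9 ± 31.2 in dHet proB and 7.84 ± 0.815 in wt proB, and fell in B-ALL against dHet proB (-2.32, limma adjusted p = 0.0129) and rose in dHet proB against wt proB (3.15, limma adjusted p = 0.00942). The cultures were begun from c-Kit+ cells, so the Kit level of dHet proB is not read as a finding between the groups. The part of this selection in the Kit level was not tested. Flt3, the receptor of Flt3 ligand, rose in B-ALL against dHet proB (44.7 ± 30.8 against 1.81 ± 1.41 FPKM, 3.80, limma adjusted p = 0.0102).

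The leukemias were then compared with each other by the limma F test over the 3 mice in a fit of all 11 libraries, which sets the mice against the spread between libraries and not between animals. Mef2c (adjusted p = 0.0112) and Tal1 (adjusted p = 0.0175) passed, Erg, Sox4, Lmo2, Meis1 and Hoxa9 did not (adjusted p from 0.559 to 1), and 22.3% of all genes tested were called. Mef2c was lower in mouse 760 than in mice 686 and 713, where its log2 levels were higher by 1.62 and 1.63 (95% intervals 0.83 to 2.41 and 0.84 to 2.42), in pairs where 7.03% and 21.7% of all genes were called. Tal1 was lower in mouse 713, by 0.81 than in mouse 686 (95% interval 0.41 to 1.21, 15.5% of all genes called in this pair) and by 0.70 than in mouse 760 (0.30 to 1.09). The calls were lost when a library of the mouse that stood apart was left out, at adjusted p = 0.0858 and 0.0756 for Mef2c without library 1 or 2 of mouse 760, and 0.072 and 0.177 for Tal1 without library 1 or 2 of mouse 713.

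Surface genes of progenitors also varied between the mice. Of the 8 tested, 7 passed, namely Kit, Flt3, Ly6a, Slamf1, Thy1, Cd93 and Cd44, of which 3 are described here, chosen after their values were seen. Ly6a, which encodes Sca-1, was at 342 and 358 FPKM in mouse 713, against 17.3 and 16.6 in mouse 686 and 12.9 and 14.9 in mouse 760 (limma adjusted p = 2.44e-05). Flt3 had 58.9 and 52.9 FPKM in mouse 686 and 69.6 and 67 in mouse 713 but 9.53 and 10 in mouse 760 (limma adjusted p = 0.00558), so that mouse 760 was lowest for Flt3 as for Mef2c. Cd44, an adhesion receptor, had 36.5 and 34.2 FPKM in mouse 713 against 2.45 and 2.09 in mouse 686 and 0.0746 and 0.109 in mouse 760 (limma adjusted p = 5.33e-06).

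Among the members, the libraries of a mouse differed most for Lmo2 and Sox4 in mice 686 and 713. Lmo2 was lower in library 1 than in library 2 by 1.70 on the log2 scale in mouse 686, by 0.96 in mouse 713 and by 0.03 in mouse 760, and 1.63%, 1.74% and 40.15% of tested genes had a lower value of this difference. Sox4 was lower in library 1 by 0.63, 0.64 and 0.36, and 6.12%, 3.34% and 5.11% of tested genes had a lower one. The medians over all genes tested were 0.04, 0.02 and 0.01. How the libraries of a mouse came to be made is not stated. With only library 1 of each mouse, Sox4 passed as lower in B-ALL than in wt proB (-0.67, adjusted p = 0.0486).

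**Figure D4:**
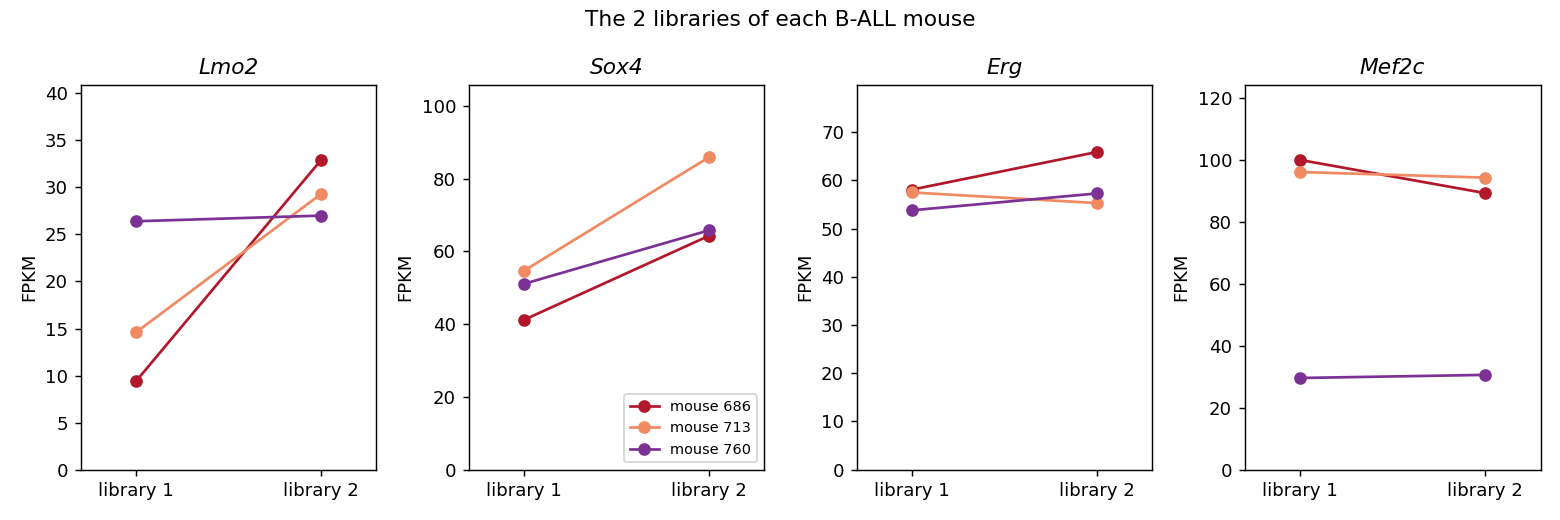
FPKM (vertical axis, linear from 0) of Lmo2, Sox4, Erg and Mef2c in libraries 1 and 2 of each B-ALL mouse, joined by a line per mouse. Lmo2 is at 9.41 against 32.9 in mouse 686 and at 14.6 against 29.3 in mouse 713, and Mef2c is near 30 in both libraries of mouse 760.

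Among the dHet proB libraries, library 2 held the lowest value for 5 of the 7 genes tested, Meis1, Hoxa9, Tal1, Lmo2 and Erg, and library 3 for Mef2c and Sox4. Over all 11110 genes tested, library 2 was the lowest of the 3 for 38.2%, library 3 for 34.0% and library 1 for 25.5%. The libraries of this group had like relative depths, 0.64, 0.658 and 0.652 for libraries 1, 2 and 3.

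The genes whose log2 levels followed each well expressed member most closely over the 8 units were listed by Pearson r, as a description in which the units share their groups. Lmo2 was followed by the cytokine gene Clcf1 (r = 0.972) and Trim25 (0.943), Erg by Snx9 (0.969) and Ssbp2 (0.964), Mef2c by the protease gene Ctse (0.959) and Ccdc43 (0.898), and Sox4 by the telomere protein gene Terf2 (0.992) and Chic2 (0.983). Ssbp2, which encodes a protein that binds LDB1, had 15.3 FPKM in B-ALL, 24.9 in dHet proB and 10.9 in wt proB, the order of Erg. Chic2 had 10.8, 30.7 and 13.9 FPKM in the same groups, the order of Sox4.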

How the data were processed

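The study deposited 1 table per library for 11 libraries. Tools named in the submitters' processing notes are bcl2fastq (0.3.1 and 2.20.0.422), Cufflinks 2.2.1, Cuffnorm 2.2.1, Cuffdiff and STAR 2.5.3a, with build mm9. The deposited values are FPKM per gene symbol, while the sources used here do not state the scaling between libraries or the annotation. FPKM sums ran from 505261 to 638953, and 0 pairs of libraries held identical values. The members and lists were chosen with earlier results of these data known.

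For each B-ALL mouse the log2(FPKM + 1) values of its libraries were averaged, giving 8 units (3 mice, 3 dHet proB, 2 wt proB). A gene was tested where 2 units or more reached 1 FPKM, by limma 3.58.1 (R 4.3.3, statmod 1.5.0) with 1 spread for all groups and a trend on mean level, two-sided, with Benjamini-Hochberg adjustment over all genes tested at 0.05. Mice were compared by an F test on 11 libraries in 5 groups (11293 genes). Separate animals or cultures are not stated for proB libraries, so those p-values measure spread between libraries, which may be technical. The step was tested on simulated data, with changes set only in genes whose mean log2(FPKM + 1) was above 3. Meis1, Hoxa9 and Tal1 lie below that level, so the simulation does not bear on them.

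Relative depth was the mode of the log2 ratio of values between 0.005 and 0.3 FPKM to library 1 of mouse 686. It was taken over 1150 to 2029 genes, of which 6% to 12.49% lay at the mode. Gata2, Hlf and Cd34 were divided by this worth and by their smallest common step, taken as 1 fragment, a choice made after seeing the data, as was that of the 4 windows shown. The other members did not fall on whole steps. Limits from 3 fragments cover counting error only. Related genes were named as up to 2 per direction, list and comparison past the test, and like genes as the 2 of highest Pearson r with 10 FPKM or more, without predicted genes. The title of 1 dHet proB library says replicate 3 and its source name replicate 2, and the title was used. Library 1 minus library 2 differences correlated at 0.635 between mice 686 and 713, so libraries 1 and 2 differed in a shared way there. Whether replicate numbers pair the libraries is not stated. With mouse 760 the values were 0.134 and 0.204, so a shared difference is unclear for that mouse. Pairs with dHet proB or wt proB ran from -0.133 to 0.113. A B lineage marker is not reported here and was left out of the sum of its list.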

Additional observations from a re-analysis of the deposited data

Results flagged for a closer look

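By chance about 1 in 20 groups would hold a value set this far apart, and 10 genes were looked at over the 6 B-ALL libraries, which are pairs from 3 mice. Meis1 at 0.128 FPKM and Erg at 65.9 FPKM, both in library 2 of mouse 686, lay apart from the other leukemic libraries. Meis1 was listed at 0 in 3 of the 6 libraries, so the figure of 1 in 20 need not hold for it. Hoxa9 at 0.0126 FPKM in library 1 of mouse 713 is listed because the other 5 were at 0, where any value above 0 would be, and nothing is read from it.

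Mef2c was above every wt proB library in mice 686 and 713 and below both in mouse 760, and the mice differed at adjusted p = 0.0112 by the limma F test.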

How the results depend on the processing

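The calls for Meis1 in B-ALL against wt proB and for Sox4 in B-ALL against dHet proB kept direction and threshold in all 26 settings, at adjusted p from 1.28e-06 to 0.0261 and 0.000105 to 0.0295. Hoxa9 was not tested without either wt proB library, where the filter removed it, and Hoxa9 and Tal1 were tested only where the group in which they are high let them pass, so their other settings say little on stability. With a filter of FPKM 5, which left fewer genes, Tal1 and Hoxa9 were not tested: members called were 0 higher and 1 lower in B-ALL against wt proB, 0 and 1 against dHet proB (Meis1 -0.84, adjusted p = 0.0861), 1 lower in dHet proB against wt proB and 1 between mice, while 566 genes were called in dHet proB against wt proB. With only the groups compared, 1 member was lower in B-ALL against dHet proB and 5073 genes differed between mice. With the mouse as a random effect, 0 members were higher in dHet proB against wt proB. With a pseudocount of 0.1, 1 member (Mef2c) differed between mice (Tal1 adjusted p = 0.094).

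The replicate block, fitted on 11 libraries in 5 groups, called 5650 genes (B-ALL against wt proB), 5831 (B-ALL against dHet proB) and 2807 (dHet proB against wt proB), where the same fit without it, chosen after seeing the data, called 4937, 5735 and 2343. Both treat libraries of a mouse as independent. Against the fit on 8 units, the block added the call of Sox4 as lower in B-ALL than wt proB (adjusted p = 0.0477) and no other of a member. On 11 libraries without the block that call was absent, and 2 members were higher in B-ALL against dHet proB (Mef2c added, adjusted p = 0.0491, against 0.0599 with the block) and 2 in dHet proB against wt proB (Erg added, adjusted p = 0.036, against 0.0655 with the block).

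Leaving out a mouse or library gave 195 to 2460 calls in B-ALL against wt proB, 1393 to 2965 in B-ALL against dHet proB, 76 to 1251 in dHet proB against wt proB and 1302 to 3430 between mice, with the lowest counts of comparisons with wt proB when a wt proB library was missing. Members called ran from 0 to 1 higher and 1 to 2 lower, 1 to 1 and 1 to 3, 0 to 2 and 0 to 2, and 1 to 2 in the same order. Values of Lmo2 and Mef2c, which passed nowhere between groups as first fitted, changed sign in some settings. Mef2c was at -0.04 after quantile normalization and -0.09 after rescaling to TPM, both in B-ALL against wt proB. Lmo2 was at -0.06 (TPM) and -0.31 (library 1 of each mouse) in B-ALL against wt proB, and at -0.20 (library 1 of each mouse) in B-ALL against dHet proB. Over the fits that left out a library or mouse, Lmo2 ran from -0.14 to 0.42 in B-ALL against wt proB, -0.42 to 0.64 in B-ALL against dHet proB and -0.50 to 0.56 in dHet proB against wt proB, and Mef2c from -0.16 to 0.66 in the first. Rescaling to TPM moved the median of all genes by -0.20, -0.15 and -0.03 and the share of called genes that were higher to 23.8%, 38.8% and 20.6%, against 44.9%, 57% and 25.1% as deposited, and left every member's call in place. The causes were not tested.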
